A study of Mus musculus with 2 samples.

Results

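Retinoid metabolism was examined through 9 genes that carry, convert, bind or degrade vitamin A derivatives: Rbp4, Stra6, Crabp1, Rdh10, Rdh11, Aldh1a1, Aldh1a2, Aldh1a3 and Cyp26b1. All 9 were found among 24315 genes named by a single symbol on the array. They were chosen by role after Aldh1a1 had been seen among the genes most above wild type on the knockout array, so its difference between the genotypes is given as a description. The RNA came from peritoneal macrophages of C57BL/6 mice, elicited with thioglycollate (an irritant that draws monocytes and macrophages into the abdominal cavity), cultured overnight without treatment and collected as the adherent cells. One array was hybridised with RNA of mice labelled HDAC11 knockout and the other with RNA of mice labelled wild type. HDAC11 is a histone deacetylase. The sources used here state neither the age, sex or number of the mice nor which part of the gene was deleted. With 1 array per genotype there was no replicate check and no test, which limits the precision of every value.

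Retinol, the transport form of vitamin A, travels in plasma bound to RBP4 and can enter cells through the STRA6 receptor. Retinol dehydrogenases oxidise it reversibly to retinaldehyde, and the retinaldehyde dehydrogenases of the ALDH1A family then oxidise retinaldehyde irreversibly to retinoic acid, which activates the nuclear receptors RAR and RXR. Cytosolic proteins such as CRABP1 bind retinoic acid, and CYP26 enzymes hydroxylate it for clearance. In mice, retinoic acid in the peritoneal cavity is known to sustain the transcription factor GATA6 in resident peritoneal macrophages.

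Aldh1a1 lies next to Aldh1a7, a close copy of it, and their starts have similar sequences. RefSeq promoters (250 bases before to 50 after the start of the transcript, GRCm38.p6) were found for 7 of the 9 genes, and that nearest the probeset was used. The transcript start lay at most 438 bases from the start of the probeset, except for Stra6, where it lay 49778 bases away. The promoters of Aldh1a1 (chr19:20601718-20602017, plus strand), Aldh1a7 (chr19:20727507-20727806, minus strand) and Aldh1a2 (chr9:71215539-71215838, plus strand) are printed because the first differed in signal between the arrays and the others did so far less. Aldh1a7 was faint on both arrays (44.2 on the knockout and 41.6 on the wild-type array), so the size of its difference is uncertain. Capitals mark ATGCAAAT, known as the octamer motif, and CCAAT, the letters of the CCAAT box, which did not overlap.
Aldh1a1: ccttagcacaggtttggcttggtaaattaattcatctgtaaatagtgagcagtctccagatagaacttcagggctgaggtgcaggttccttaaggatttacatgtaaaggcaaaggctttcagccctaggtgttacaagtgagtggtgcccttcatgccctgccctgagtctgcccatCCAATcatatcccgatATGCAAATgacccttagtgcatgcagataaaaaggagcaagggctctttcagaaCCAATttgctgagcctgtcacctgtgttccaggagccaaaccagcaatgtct
Aldh1a7: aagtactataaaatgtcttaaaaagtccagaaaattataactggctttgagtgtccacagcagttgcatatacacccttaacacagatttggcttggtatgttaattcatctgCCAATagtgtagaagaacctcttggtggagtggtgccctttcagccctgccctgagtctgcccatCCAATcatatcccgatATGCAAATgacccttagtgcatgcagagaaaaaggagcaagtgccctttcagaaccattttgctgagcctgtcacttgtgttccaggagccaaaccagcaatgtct
Aldh1a2: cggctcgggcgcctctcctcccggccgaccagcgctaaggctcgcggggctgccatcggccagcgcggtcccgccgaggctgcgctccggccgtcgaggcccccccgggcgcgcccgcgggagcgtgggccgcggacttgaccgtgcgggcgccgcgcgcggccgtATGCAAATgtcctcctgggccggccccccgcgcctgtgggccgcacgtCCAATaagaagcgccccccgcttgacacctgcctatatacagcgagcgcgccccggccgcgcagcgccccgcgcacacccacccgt
Over the last 150 bases, aligned without gaps, Aldh1a1 and Aldh1a7 had 142 identical bases (94.7%), against 32 (21.3%) for Aldh1a1 and Aldh1a2. All 3 hold the octamer, which starts 56 bases before the transcript start in Aldh1a1 and in Aldh1a7 and 84 bases before it in Aldh1a2. Searched on both strands, ATGCAAAT occurred in 2 of the 7 promoters (Aldh1a1 and Aldh1a2) and in 1.74% of 32851 RefSeq promoter entries of the same length. These entries leave out 1 chromosome, which holds none of the 7. CCAAT occurred in 4 of the 7 and in 37.4% of the entries. Both motifs were chosen after the sequences had been read. The half-sites AGGTCA and AGTTCA, to which RAR and RXR can bind, occurred in none of the 7, against 16.3% and 14.0% of the entries. Such matches are descriptions of letters, not of binding sites. The promoters differed in composition: that of Aldh1a1 had 47% G or C with 1 CpG and that of Aldh1a2 78% with 50 CpGs.

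Facts of the whole arrays that bear on the comparison are few. The targeted gene did not check the label. The brighter of 2 Hdac11 probesets gave a signal of 147.2 on the knockout array and 134.5 on the wild-type array. Both were below the floor of 159 that a gene's brighter array had to reach. The other Hdac11 probeset, dimmer in mean signal, is not reported here. The sources used here do not say whether the Hdac11 probes lie inside the deleted part, so each direction rests on the labels. The Y-linked Ddx3y, Eif2s3y, Kdm5d and Uty had log2 differences, knockout minus wild type, between -3.39 and -1.55, while Xist gave 8458 on the knockout array and 8688 on the wild-type array, and the sex of the mice cannot be told apart from the genotype here. The median difference over 5124 distinct intron controls was -0.36. All 8 macrophage markers were above the floor, with differences between -0.17 (Itgam) and 0.27 (Mertk). Their summed signal was 56765 on the knockout array and 55547 on the wild-type array. As reported, 5 of the 8 were higher and 3 lower on the knockout array, but 2 were higher and 6 lower after median centring. In a mixed RNA, more cells of a type and more RNA per cell cannot be told apart.

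Of the 3 retinaldehyde dehydrogenases, Aldh1a1 stood well above wild type on the knockout array, Aldh1a2 was near its wild-type signal, and Aldh1a3 was below the floor on both arrays. Aldh1a1 encodes a cytosolic enzyme that oxidises retinaldehyde and other aldehydes (probeset 17358103, chromosome 19, 20601961 to 20643462, plus strand). Its RMA signal was 428.5 on the knockout array and 220.1 on the wild-type array. The knockout value was therefore higher by 0.96 on the log2 scale, or 1.95-fold, and both arrays were above the floor. This was the 15th highest difference among the 12158 genes above the floor, between Eif4a1 (0.97) and Cd59a (0.91), and the 9th among the 8485 of them whose probeset carries a RefSeq mRNA accession. Among the 500 genes closest to Aldh1a1 in mean signal the SD of the differences was 0.21, and none of them was higher by 1.5-fold or more, while 6 were lower by that much. Aldh1a1 was picked for its high difference, so these ranks and this comparison restate that choice and give no separate support. The authors' sheet of 2816 selected probesets, out of 41345, holds only Aldh1a1 of the 9 genes, with a deposited fold of 1.95. The smallest fold in that sheet is 1.495 in either direction. It was drawn from the same 2 arrays, so it is no separate check.

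The Aldh1a1 value rests on 9 probes, fewer than for the other 8 genes, which had 20 to 31. All 9 probes match the Aldh1a1 mRNA directly by the deposited annotation, and the probeset is typed there as unique. Differences were wider for probesets with few probes. Among genes above the floor with a RefSeq mRNA accession and a unique probeset, the SD was 0.26 in 250 genes with 5 to 12 probes, of which 2.8% were higher by 1.5-fold. The SD was 0.19 in 6695 genes with 20 to 40 probes, of which 0.373% were higher by 1.5-fold. The part of probe number in the Aldh1a1 difference was not tested.

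**Figure D1:**
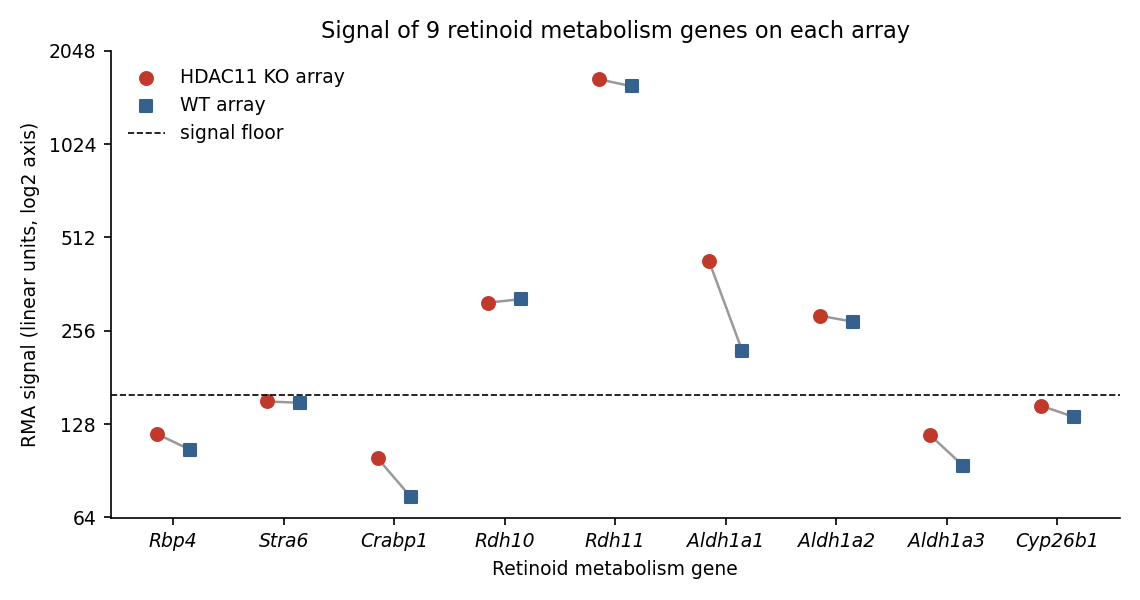
RMA signal (linear units on a log2 axis) of the 9 retinoid metabolism genes on the knockout array (circles, left) and the wild-type array (squares, right), 1 array each. The dashed line is the floor of 159. Aldh1a1 has 428.5 and 220.1; the other pairs lie closer together, and levels of different genes are not comparable.

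Aldh1a2 encodes the retinaldehyde dehydrogenase that makes most embryonic retinoic acid (probeset 17519112, chromosome 9, 71215789 to 71296243, plus strand). It gave 286.3 on the knockout array and 273.8 on the wild-type array, a difference of 0.06. Its distance from 0 was well inside the SD of 0.22 among the 500 genes of closest mean signal. Aldh1a3, the third enzyme of the family (probeset 17491941, chromosome 7, 66390892 to 66427517, minus strand), gave 117.9 on the knockout array and 93.8 on the wild-type array. The difference of 0.33, or 1.26-fold, was between signals that both lay below the floor, and its size is uncertain. Of the 500 genes of closest mean signal, 90.4% had a smaller or more negative difference.

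Aldh1a7, the neighbouring copy (probeset 17363429, chromosome 19, 20692953 to 20727562, minus strand), did not show the Aldh1a1 difference. It gave 44.2 on the knockout array and 41.6 on the wild-type array, a difference of 0.09 with both signals below the floor, where sizes are uncertain. Its 12 probes are also typed as unique. Within 1 Mb of Aldh1a1 lay 9 other named genes, of which 4 were above the floor, with differences between -0.09 and 0.06. Those 4 include Anxa1, which encodes the anti-inflammatory protein annexin A1, at 9702 on the knockout array and 9430 on the wild-type array.

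The retinol dehydrogenases were nearly equal on the arrays. Rdh10, whose product oxidises retinol to retinaldehyde (probeset 17211258, chromosome 1, 16105774 to 16133734, plus strand), gave 315.5 on the knockout array and 323.7 on the wild-type array. Its difference of -0.04 was the only negative one among the 9 genes. Rdh11, which encodes a retinaldehyde reductase that can also oxidise retinol (probeset 17282158, chromosome 12, 79174337 to 79192293, minus strand), gave 1658 on the knockout array and 1573 on the wild-type array. The difference was 0.08, against an SD of 0.16 among the 500 genes of closest mean signal. Neither gene differed by more than 1.054-fold.

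The carrier, the receptor, the retinoic acid binding protein and the retinoic acid hydroxylase were all below the floor on both arrays. Rbp4, the plasma retinol carrier (probeset 17364341, chromosome 19, 38116620 to 38125321, minus strand), gave 119.1 on the knockout array and 106.0 on the wild-type array, a difference of 0.17. Stra6, the membrane receptor for that carrier (probeset 17517848, chromosome 9, 58079310 to 58153997, plus strand), gave 151.4 on the knockout array and 149.9 on the wild-type array, a difference of 0.01 that was negative after median centring, loess or quantile normalization (-0.05 at the lowest). These signals, just under the floor, do not separate the genotypes.

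Crabp1, the cytosolic retinoic acid binding protein (probeset 17517416, chromosome 9, 54764748 to 54773110, plus strand), gave 99.3 on the knockout array and 74.5 on the wild-type array. The difference of 0.42 was between signals that both lay below the floor, so its size and its place among the 9 genes are uncertain. Of the 500 genes of closest mean signal, 96.4% had a smaller or more negative difference. Cyp26b1, a retinoic acid hydroxylase (probeset 17468286, chromosome 6, 84571414 to 84593908, minus strand), gave 146.8 on the knockout array and 135.0 on the wild-type array, a difference of 0.12. The 5 genes below the floor had a median difference of 0.17. Dim genes in general stood slightly above wild type on the knockout array: the median difference of the 500 genes of closest mean signal was between 0.07 and 0.09 for each of these 5.

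Of the 9 genes, 8 had the higher signal on the knockout array and 1 on the wild-type array, with a median difference of 0.12. The 8 include Stra6, which was lower on the knockout array after median centring, loess or quantile normalization. The same median was 0.02 over all 24315 named genes, of which 54.7% were higher. Only 4 of the 9 were above the floor, and of these 1 was past 1.5-fold (Aldh1a1), and none past 2-fold. Over all genes above the floor 1.55% were past 1.5-fold in either direction, 0.543% higher and 1.01% lower. Since Aldh1a1 was the reason for choosing the group, nothing is read from the count. The 3 other genes above the floor differed by at most 1.054-fold.

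**Figure D2:**
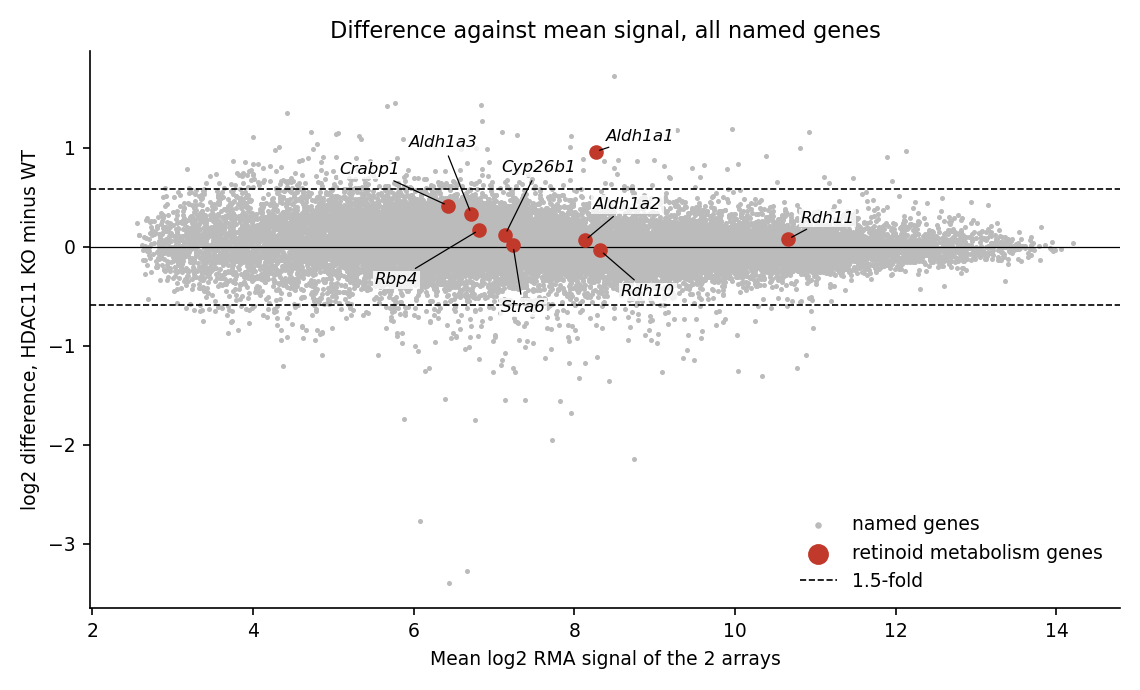
The log2 difference, knockout minus wild type, of each of 24315 named genes (grey) against its mean log2 RMA signal on both arrays, with the 9 retinoid metabolism genes in red. Dashed lines mark 1.5-fold; Aldh1a1, at 0.96, is beyond them and the other 8 are within them.

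The rest of the pathway was described through 56 further genes, listed by role, all of them measured and 25 above the floor. None of the 25 was past 1.5-fold, where 1.55% of all genes above the floor were. Of the 25, 16 were higher and 9 lower on the knockout array, and differences ran from -0.35 to 0.33. Their median was 0.02, or -0.04 after median centring, against -0.01 and -0.07 for all genes above the floor.

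Among genes of uptake, Stra6l, which encodes a further RBP4 receptor in mice, gave 2055 on the knockout array and 1645 on the wild-type array, a difference of 0.32. Lpl, the lipoprotein lipase that also frees retinyl esters from chylomicrons, gave -0.14. Among binding proteins, Crabp2, which delivers retinoic acid to the nucleus, gave 167.9 on the knockout array and 133.9 on the wild-type array (0.33, the dimmer signal below the floor). Among genes of ester storage and carotenoid cleavage, the retinol saturase gene Retsat gave 0.27 and the acyltransferase gene Dgat1 0.12, and all 4 above the floor were higher, although Lipe (0.02) was not so after median centring.

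Of the 19 genes of retinol oxidation and retinaldehyde reduction, Rdh10 and Rdh11 included, 8 were above the floor, 3 higher and 5 lower, with a median of -0.01 that was -0.07 after median centring and 0.0036 after quantile normalization. The furthest from 0 were Rdh14 (0.23) and Dhrs4 (0.19), both of which encode retinaldehyde reductases. The other retinaldehyde oxidising enzymes on the list, Aldh8a1, Aox1 and Aox3, were below the floor. So were the 3 CYP26 genes, which had differences between -0.01 and 0.28.

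Of the 6 receptor genes, 5 were above the floor, with Rarb, itself a target of retinoic acid, at 0.16 and Rara at -0.12. Of 15 genes known to be induced by retinoic acid in various cells, 9 were above the floor, 5 higher and 4 lower, with a median of 0.02 that was -0.04 after median centring. Plat, which encodes tissue plasminogen activator, was the lowest of these at 173.4 on the knockout array and 221.1 on the wild-type array (-0.35), and Crabp2 was the highest. Gata6, taken up here because the peritoneal action of retinoic acid is known through it, gave 424.8 on the knockout array and 487.1 on the wild-type array, a difference of -0.20.

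**Figure D3:**
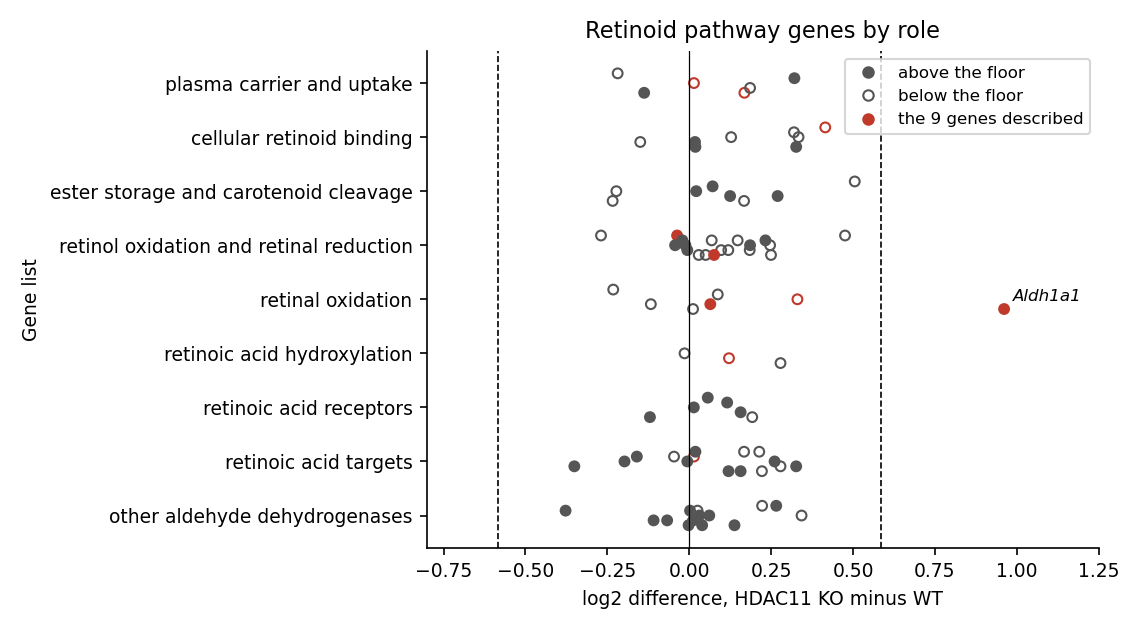
The log2 difference, knockout minus wild type, of each gene on 9 lists of retinoid roles and other aldehyde dehydrogenases. Filled points are above the floor and open points below it, red points are the 9 genes described, and dashed lines mark 1.5-fold; Aldh1a1 at 0.96 is the only point beyond them.

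Markers of other cells that a peritoneal lavage can hold differed in several directions beside Aldh1a1. Of 9 mast cell markers, 6 were higher and 3 lower on the knockout array (5 and 4 under the 3 other scalings), and their summed signal was 896.1 there and 620.3 on the wild-type array. Only Cpa3, the mast cell carboxypeptidase, was above the floor, at 366.0 on the knockout array and 168.7 on the wild-type array (1.12). The other 8 were below the floor on both arrays, where sizes are uncertain. Of these the tryptase genes Tpsb2 and Tpsab1 gave 0.77 and 0.26, and the chymase gene Cma1 gave 0.48. The remaining 5, Mcpt4, Fcer1a, Ms4a2, Kit and Hdc, had differences between -0.11 and 0.07. Of 7 neutrophil markers 5 were higher and 2 lower (4 and 3 under the other scalings), with a summed signal of 917.4 on the knockout array and 702.6 on the wild-type array. S100a8 (0.89) was alone above the floor, at 375.6 on the knockout array and 203.1 on the wild-type array, a large part of either sum. Below the floor, Ly6g gave 0.47, Ltf 0.24, Mpo 0.21 and Elane 0.03, while S100a9 gave -0.11 and Camp -0.10.

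Markers of mesothelium and fibroblasts, which make retinoic acid in the mouse peritoneum, were mostly lower on the knockout array. Of their 19 markers 5 were higher and 14 lower on the knockout array (3 to 5 higher under the 3 other scalings), with a summed signal of 7939 there and 8504 on the wild-type array. Among the 11 above the floor the furthest from 0 were Pdgfra (-0.52) and Col1a2 (-0.34) for fibroblasts, and Wt1 and Gpm6a (-0.13 each) for mesothelium. Resident peritoneal macrophage markers were lower in 9 of 12, with a summed signal of 6342 on the knockout array and 7821 on the wild-type array. Of these Selp gave -0.82 and Cxcl13 -0.60, although Fcna was higher (0.69).

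Adipocytes are a known source of Rbp4. None of 6 adipocyte markers, Adipoq and Plin1 among them, was above the floor. The summed signal of the 6 was 512.7 on the knockout array and 473.6 on the wild-type array. Of 7 dendritic cell markers, a cell type known for Aldh1a2, only Cd209a (0.00) and Ccr7 (0.03) were above the floor, with summed signals of 916.5 on the knockout array and 934.0 on the wild-type array. Of 5 eosinophil markers 2 were higher and 3 lower on the knockout array (1 and 4 under the 3 other scalings), with a median of -0.11 and a summed signal of 625.6 there and 594.7 on the wild-type array. Siglec5 (0.27) alone was above the floor, and Il5ra, below it, gave -0.71. B cell markers summed to 878.9 on the knockout array and 971.2 on the wild-type array. T cell markers, none above the floor, summed to 307.5 on the knockout array and 317.2 on the wild-type array. The part of any of these cells in the Aldh1a1 difference was not tested.

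**Figure D4:**
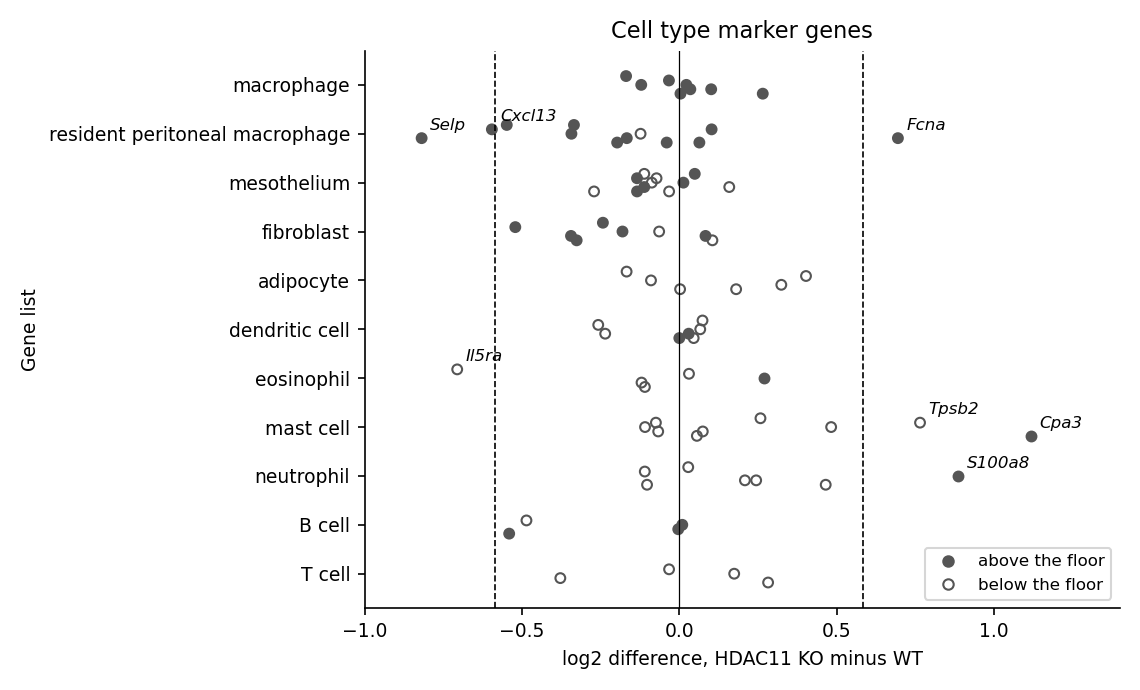
The log2 difference, knockout minus wild type, of each gene on 11 lists of cell type markers. Filled points are above the floor, open points below it, and dashed lines mark 1.5-fold; Cpa3 (1.12), S100a8 (0.89) and Fcna (0.69) are the points above the floor furthest to the right, and Selp (-0.82) the furthest to the left.

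The genes whose pair of signals was nearest to that of Aldh1a1, by Euclidean distance over 2 log2 values, were Marveld2, S100a8, Slc40a1, 1700125D06Rik and Fcrls, at distances between 0.16 and 0.30. Marveld2, which encodes the tight junction protein tricellulin, gave 445.3 on the knockout array and 243.4 on the wild-type array (0.87). Slc40a1, which encodes the iron exporter ferroportin, gave 359.5 on the knockout array and 209.6 on the wild-type array (0.78). With 2 arrays this likeness says only that the level and the difference were near.

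**Figure D5:**
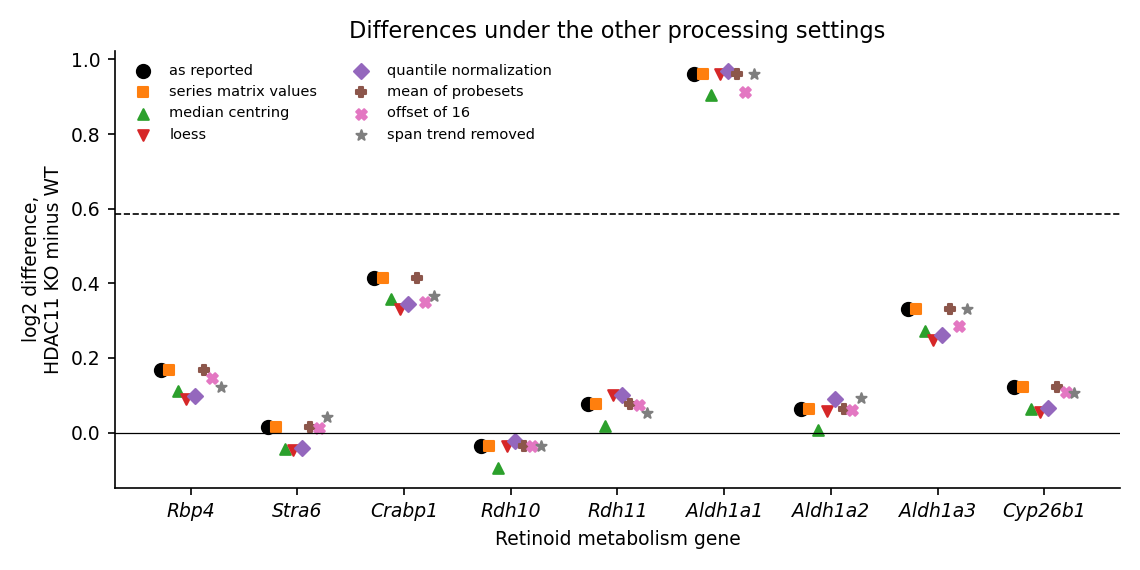
The log2 difference, knockout minus wild type, of each of the 9 genes as reported (black) and under 7 other processing settings. Among these, the series matrix values and the mean of probesets could not change a value. The dashed line marks 1.5-fold; Aldh1a1 stays between 0.90 and 0.97, and the other 8 genes stay below the line.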

How the data were processed

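RNA of 2 samples, 1 per genotype, was hybridised to Affymetrix arrays. The authors deposited a linear-scale intensity for 41345 probesets; per the submitters' processing notes it was made by RMA in Affymetrix Expression Console 1.2.1. The log2 values deposited by the authors in the series matrix differed from log2 of those intensities by at most 5e-05. The deposited fold column is a signed score, the brighter over the dimmer signal, negative where the knockout was lower. The genome build is not stated in the sources used here; deposited coordinates are printed, and all 9 genes overlapped the RefSeq gene of the same name in GRCm38.p6.

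RMA usually equalises the distribution of signals between arrays, which would hide a shift common to most genes. Of 33641 main probesets, 26563 had 1 symbol; the brightest stood for each of 24315 genes, and each of the 9 genes had 1 probeset. The floor was the median over genes of the brighter signal (159), which 2.75% of 1092 olfactory receptor genes, silent in most tissues, also reached. Differences are log2 of the knockout minus the wild-type signal; past 1.5-fold means at least 0.58 either way. No test was possible with 1 array per genotype. Steps were tested on simulated data.

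The members and lists were chosen with earlier results of these data known. Named were the 9 genes, Hdac11, Aldh1a7, the 5 genes nearest Aldh1a1 and, per list, up to 4 genes past 1.5-fold and above the floor, or else the 2 furthest from 0. Some genes this rule names are not reported here. Other genes named, such as Gata6, Anxa1 and the Y-linked genes, were chosen after their values were seen. Alternatives covered the source of values, scaling, probesets, offset and floor. Python 3.11.15, numpy 2.4.6, pandas 2.3.3, statsmodels 0.14.6 and matplotlib 3.10.9 were used.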

Additional observations from a re-analysis of the deposited data

How the results depend on the processing

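No paired analysis was possible because each genotype had 1 array. The difference of Aldh1a1 lay between 0.90 (median centring) and 0.97 (quantile normalization) under 7 other settings, among them values of the series matrix, loess, the mean of probesets, an offset of 16 and, chosen after seeing the data, removal of the trend with genomic span. All 63 such values for the 9 genes moved by less than 1 SD of the genes of like mean signal. For part of them this was fixed in advance. The series matrix matched the deposited signals within 5e-05, and each gene had 1 probeset, so neither that source nor the mean of probesets could move a value. Removal of the span trend also left Aldh1a1 at 0.96. Of the 9, only Stra6 changed sign, between -0.05 and 0.04. A floor at the 75th percentile, which is a signal of 668, left 1 of the 9 genes (Rdh11) and so 0 past 1.5-fold, because Aldh1a1 was then below it; it left 23 genes higher and 35 lower past 1.5-fold overall. At the 25th percentile (signal 70.7) the floor kept all 9 genes and gave 121 higher, against 66 as reported. Without a floor, 250 were higher and 258 lower, against 66 and 123. The count of further pathway genes past 1.5-fold was 0 under each of the 10 alternatives, and their median above the floor lay between -0.04 (median centring) and 0.09 (floor at the 75th percentile). Probe-level steps were not varied, and signals near the floor limit what can be said of Rbp4, Stra6, Crabp1, Aldh1a3 and Cyp26b1.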

Other observations

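Beside Aldh1a1 and its close relatives stood 14 further genes of the aldehyde dehydrogenase family, whose enzymes oxidise aldehydes of amino acid, lipid and alcohol metabolism. Of these, 11 were above the floor, 7 higher and 4 lower on the knockout array, with a median of 0.01 that was -0.05 after median centring. None of the 11 was past 1.5-fold, where 1.55% of all genes above the floor were, so nothing is read from that count. The furthest from 0 were Aldh18a1, which makes the proline precursor, at 519.3 on the knockout array and 674.7 on the wild-type array (-0.38), and Aldh6a1, of valine breakdown, at 851.4 on the knockout array and 708.2 on the wild-type array (0.27).

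A broader set was taken from the deposited gene ontology terms, as 136 genes with a process or function term that names retinol, retinal, retinoid or retinoic acid. It held 8 of the 9 genes, Stra6 excepted. Of the other 128, 52 were above the floor, 22 higher and 30 lower on the knockout array, with a median of -0.03, against -0.01 for all genes above the floor. None of the 52 was past 1.5-fold, beside the same 1.55%. Without the floor 2 of the 128 were, Akr1c6 and Lefty1, both higher and both below the floor on each array. Over all 24315 named genes without a floor, 2.09% were past 1.5-fold, 1.03% higher and 1.06% lower. Nothing is read from these counts. The gene ontology set was formed after the data had been seen.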
